A study of Rattus norvegicus with 352 samples.

Results

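Ilrun is 1 of the 38354 genes measured in brain hemispheres of heterogeneous stock rats, and it was chosen by its measured levels: most libraries held it at a high level, some at about 50.1% of that, and 2 hardly at all. The gene was found by its symbol in the table of all libraries after each library had been scaled to counts per 1000000 (CPM). Because these values chose the gene, its own levels are given as a description, with no test. The animals were naive outbred laboratory rats that received no treatment, and the labels place all of them in a single group, whole brain hemisphere. PolyA RNA was sequenced, each library is taken here as 1 rat, and estimated counts per library lay between 5418230 and 42980793. Sex and age were not used here. Heterogeneous stock rats descend from several inbred strains, so that many alleles segregate among them.

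Ilrun encodes a small intracellular protein with an ubiquitin-associated-like domain and a domain related to that of the autophagy receptor Nbr1. Its name stands for inflammation and lipid regulator: in human cells the protein holds back transcription of antiviral and inflammatory genes by acting on the transcription factor IRF3 and on the coactivators p300 and CBP, and in mouse liver it has been tied to lipid metabolism through PPAR alpha. In RefSeq the rat gene lies on the minus strand of chromosome 20 (GRCr8, 5811721 to 5878082), spans 66362 bases, is protein coding and has 3 annotated transcripts. The rat major histocompatibility complex, the RT1 region, lies on the same chromosome at lower coordinates.

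The promoters of Ilrun and of Rps10, the neighbour whose level followed that of Ilrun most closely, are shown because the levels of both genes are compared throughout. Each runs from 250 bases before to 50 bases after the RefSeq start site, on the minus strand of GRCr8, at chr20:5877929-5878228 for Ilrun and chr20:5700695-5700994 for Rps10. Capitals mark a cyclic AMP response element, TGACGTCA, searched on both strands.
Ilrun: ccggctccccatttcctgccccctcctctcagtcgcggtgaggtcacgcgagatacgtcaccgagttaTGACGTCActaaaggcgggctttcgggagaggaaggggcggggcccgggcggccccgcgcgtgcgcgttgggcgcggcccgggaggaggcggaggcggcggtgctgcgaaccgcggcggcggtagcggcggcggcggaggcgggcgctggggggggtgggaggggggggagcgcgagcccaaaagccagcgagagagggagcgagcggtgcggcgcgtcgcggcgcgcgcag
Rps10: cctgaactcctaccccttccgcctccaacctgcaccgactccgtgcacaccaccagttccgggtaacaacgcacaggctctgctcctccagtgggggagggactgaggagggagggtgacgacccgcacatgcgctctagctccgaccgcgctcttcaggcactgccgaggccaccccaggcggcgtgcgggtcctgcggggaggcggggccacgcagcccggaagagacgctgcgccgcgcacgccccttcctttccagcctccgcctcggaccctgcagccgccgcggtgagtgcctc
The Ilrun window held the element once, beginning at base 69, and the Rps10 window did not hold it; 1.83% of 33469 RefSeq promoters of the same length do. The Ilrun window was 76.3% G or C and held 48 CpG dinucleotides, more than 98.96% of promoters, whose median is 7. That of Rps10 was 70.7% G or C with 29 CpG, more than 88.52% of promoters. GGGCGG, the core of a GC box, occurred 2 times in the Ilrun window and not in that of Rps10, against a share of 33.1% of promoters. Neither window held TATAAA, found in 14.2% of promoters, or CCGGAAGT, an ETS-type site found in 3.81%; no match overlapped the element in capitals. A match or its lack describes these letters only.

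Levels below are log2 of CPM plus 1. Ilrun averaged 8.15 ± 0.65 (SD over all libraries), with a median of 8.34, which is 322.02 CPM. The values fell into separate sets. Near-absent, a level under 3, described 2 libraries (0.585%). Intermediate, a level from 3 to 7.84, which is 0.5 under the median, described 55 libraries (16.1%). Full, a level above that, described the remaining 83.3%. These sets come from the measured values and are not groups of the study.

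Brain-212 had an Ilrun level of 1.20, or 1.30 CPM, which rests on 25.5 estimated counts of 19689558 (exact Poisson 95% interval 0.863 to 1.93 CPM). Brain-256 had a level of 1.25, or 1.38 CPM, from 31.5 estimated counts of 22837394 (0.958 to 1.98 CPM). These intervals cover counting error only. The CPM values were 0.398% and 0.424% of the full-level median, so both libraries had estimated counts for Ilrun, but at a trace. Whether this trace came from Ilrun RNA in these hemispheres was not tested. The 55 intermediate libraries spanned levels of 7.24 to 7.50 with a median of 7.36, in CPM 150 to 180 with a median of 163.03. Their CPM was 45.99% to 55.4% of the full-level median, with a median of 50.1%. The full libraries spanned 8.17 to 8.58 with a median of 8.35, in CPM 287.96 to 382.67 with a median of 325.57.

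No library lay between the sets. The empty stretch from the higher near-absent library to the lowest intermediate one was 5.98 wide, and that from the highest intermediate library, at 7.50, to the lowest full one, at 8.17, was 0.67 wide. The next widest step between neighbouring libraries was 0.091. The intermediate set was 0.27 wide and the full set 0.41 wide. Library totals overlapped between the sets: they were 19689558 and 22837394 in the near-absent libraries, 13820504 to 33735994 in the intermediate ones and 5418230 to 42980793 in the full ones.

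**Figure D1:**
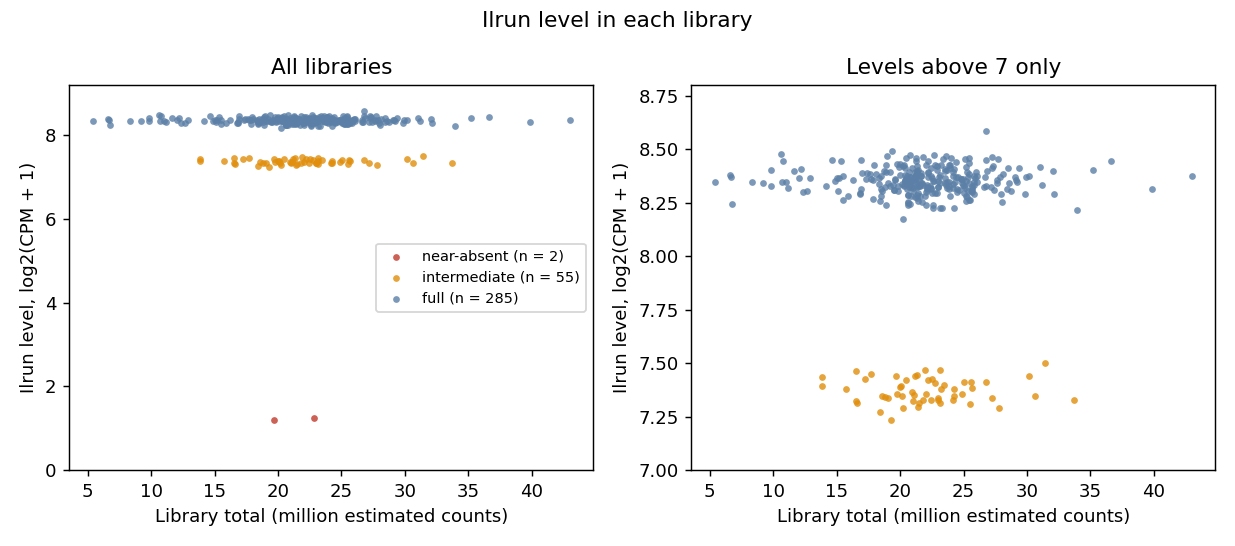
Ilrun level, log2(CPM + 1), of each library against its total of estimated counts, over all libraries (left) and enlarged for levels above 7 (right), 1 point a library, with near-absent, intermediate and full sets in separate colours. At overlapping totals, the 2 near-absent libraries sit at 1.20 and 1.25, the 55 intermediate ones between 7.24 and 7.50, and the full ones, 83.3% of libraries, between 8.17 and 8.58.

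The intermediate level was found throughout the cohort. Identifiers that start with the same 6 characters were taken as blocks, and what such a block stands for is not given. Of 7 blocks of at least 8 libraries, all held intermediate libraries, in shares of 7.69% (1 of 13) to 20.7% (30 libraries), and both near-absent libraries belonged to the block with that highest share. Block medians of the Ilrun level lay between 8.32 and 8.37. The labels state that 14 libraries in the table were renamed after their genotypes failed to match; none was near-absent, 4 were intermediate and 10 were full.

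The separate sets gave Ilrun a spread that few genes of its level had, which is a description only, since its levels chose the gene. Of 659 other genes with a mean within 0.5 of that of Ilrun, 5 had a larger SD, and their median SD was 0.076 against 0.65 for Ilrun. Within the full libraries the SD of Ilrun was 0.059, against a median of 0.076 in the same genes, of which 20.8% had a smaller one. The full set was bounded on the Ilrun level itself and not on those of the other genes, so these SDs are not like for like.

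The fall to near-absence was compared in shape with other genes. Ilrun was chosen by its levels, so its own place among them is a description only. Among 11011 autosomal named genes whose level averaged 3 or more, 7 (0.0636%) had their lowest library at least 5 under the median, and Ilrun, at 7.14, had the longest way down. Gabra6, an alpha subunit of the GABA-A receptor known from cerebellar granule cells, followed with 6.28. Fat2, an atypical cadherin, had 6.15 and Cbln3, a cerebellin, had 5.58; both are likewise known from granule cells. Pcp2, a Purkinje cell protein, had 4.97. For all 4 of these genes the lowest library was brain-4, a library at an intermediate Ilrun level of 7.32, and the next lowest lay at 6.32, 6.61, 5.07 and 4.60. These 4 drops thus belonged to 1 library, which was not one of the near-absent Ilrun libraries.
Rpl30, a protein of the large ribosomal subunit, had its lowest value of 1.35 in brain-123 and 4.93 in the next. Hbbl1, a beta-like haemoglobin, lay under a level of 3 in 29.5% of libraries, and the pseudogene Hsp90aa1-ps17 in 4 libraries. These genes belong to families with near-identical copies, so their levels are uncertain.

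**Figure D2:**
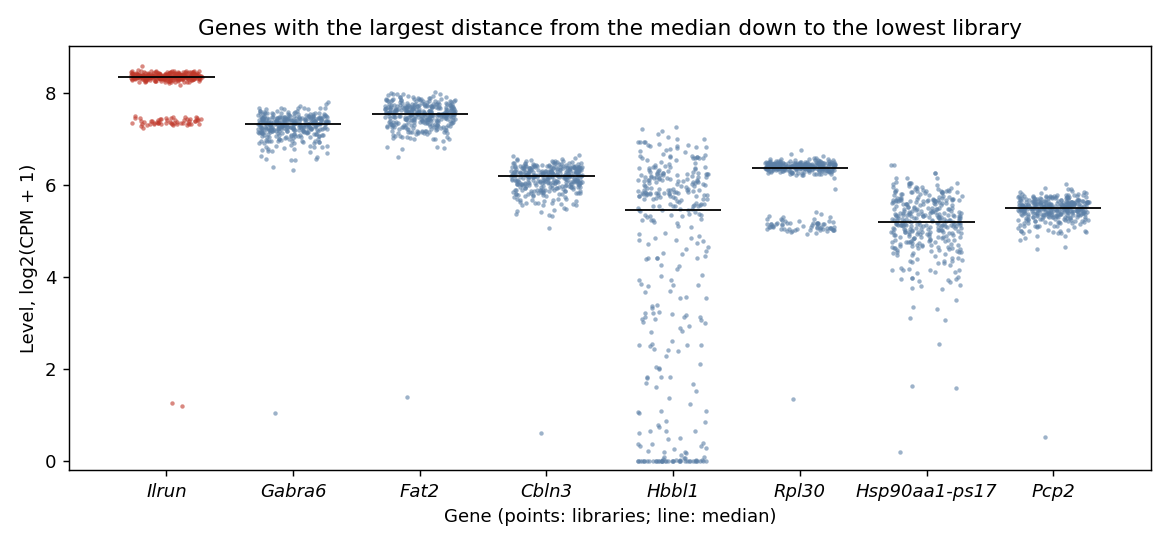
Levels, log2(CPM + 1), of the 8 genes with the largest distance from the median down to the lowest library, 1 point a library. For Ilrun 2 libraries lie at 1.20 and 1.25 under a set at 7.24 to 7.50, while for Gabra6, Fat2, Cbln3 and Pcp2 a single library, brain-4, lies alone at the bottom.

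In genes detected and in likeness to other libraries, the near-absent libraries lay within the range of the rest. Brain-212 had 25586 genes above 0 and brain-256 had 26349, within the range of 22962 to 27876 over all libraries (median 26366). Brain-212 was the lowest of all libraries for 78 genes and brain-256 for 22, where the median library was lowest for 24 genes and the most extreme one for 1076. Over genes, their median Pearson r with the other libraries was 0.9898 and 0.9911, within a range of 0.9824 to 0.9924. Their r with each other was 0.9941, higher than for 99.1% of pairs of libraries, which had a median of 0.9911 and reached 0.9951. Markers of 5 brain cell types, 15 genes in all, had mean levels of 3.73 to 12.43. The liver genes Alb and Apoa2 averaged 0.89 and 0.025, and the skeletal muscle genes Ckm and Myh4 0.17 and 0.36, while Acta1, the skeletal muscle actin, averaged 3.47. In whole tissue, fewer cells that express a gene and less of its RNA per cell cannot be told apart.

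To find which other genes went with Ilrun, the level of each of 16682 genes was fitted on the Ilrun level with limma, with 10 principal components as covariates. A slope is the change in a gene's level for a difference of 1 in the Ilrun level, so a positive slope means lower in libraries with less Ilrun. Full and intermediate libraries differ by about 1, while the 2 near-absent ones lie far below both. The slope over all libraries thus leans heavily on those 2 libraries and is not the step from full to intermediate. For Rps10 it was 0.10, against 0.24 without them. At a Benjamini-Hochberg adjusted p under 0.05, 1.71% of the genes had a slope, 0.821% a positive and 0.893% a negative one. Without the near-absent libraries 0.821% of the genes passed, within the full libraries alone 0.575% (96 genes), and on Ilrun CPM in place of the level, an alternative added after the data were seen, 1.67%.

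Of 77 genes that start within 1 Mb of the Ilrun start, 48 were expressed well enough to be tested, 26 at lower and 22 at higher coordinates, and 29 had a mean level under 1. A slope passed for 6 of the 48 (12.5%, against 1.71% of all genes), 3 of them positive and 3 negative; 5 lay at lower coordinates and 1 at higher ones. The median slope of the 48 was 0.00044, against -0.00069 over all genes tested. With the identifier block as a further covariate 6 neighbours and 1.49% of all genes passed. Of the 6, 4 also passed without the near-absent libraries, and none passed within the full libraries.

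Rps10, a protein of the small ribosomal subunit, starts 177.2 kb from the Ilrun start on the same strand (5696135 to 5700863). Its level was 6.51 in brain-212 and 6.36 in brain-256, ranked 32 and 7 from the lowest of all libraries, against 6.16 to 6.88 in the intermediate libraries and 6.45 to 7.05 in the full ones. In the intermediate set 48 of 55 libraries lay under the all-library median of 6.75, and in the full set 42.5% did. The sets overlapped, but Rps10 was lower where Ilrun was lower, with a slope of 0.10 ± 0.0092 (SE; limma adjusted p = 3.49e-21). Without the near-absent libraries the slope was 0.24 ± 0.013 (limma adjusted p = 1.50e-46). Within the full libraries it was -0.18 ± 0.092 (limma adjusted p = 0.589). The slope thus passed across the sets and missed the threshold within the full set.

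Rps10l6, a copy of Rps10 listed on chromosome 15, went the other way and was the gene of largest absolute moderated t outside the 1 Mb window with a named symbol. Its level was 2.66 in brain-212 and 3.01 in brain-256, against 1.13 to 3.68 in the intermediate libraries and 0.25 to 3.23 in the full ones, with a median of 1.28 over all. The slope was -0.51 ± 0.046 (limma adjusted p = 3.49e-21), and -1.21 ± 0.066 without the near-absent libraries. The division of reads between near-identical copies is not stated, so both levels are uncertain. With the counts of Rps10 and its 5 copies summed, chosen after the data were seen, the slope was 0.072 ± 0.0069 (limma adjusted p = 1.34e-18), and without the near-absent libraries 0.17 ± 0.011 (limma adjusted p = 1.86e-38). The sum was thus still lower where Ilrun was lower.

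Pacsin1, a neuronal adaptor of endocytosis and membrane bending, starts 158.2 kb away (5719929 to 5769492, plus strand). Its level was 8.99 and 8.94 in brain-212 and brain-256, 8.89 to 9.12 in the intermediate libraries and 8.83 to 9.21 in the full ones. It lay under its median of 9.02 in 42 of 55 intermediate libraries. The slope was 0.017 ± 0.0026 (limma adjusted p = 1.65e-07), 0.041 ± 0.0042 without the near-absent libraries and -0.0026 ± 0.038 within the full ones (limma adjusted p = 0.994). The sets overlapped almost wholly, and the difference was small.

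Nudt3, a phosphohydrolase of diphosphoinositol polyphosphates, starts 189.3 kb away (5636184 to 5688770, minus strand). It had 7.94 and 7.97 in brain-212 and brain-256, 7.84 to 8.08 in the intermediate libraries and 7.66 to 8.11 in the full ones. It lay over its median of 7.93 in 42 of 55 intermediate libraries, and its slope was -0.021 ± 0.0037 (limma adjusted p = 2.04e-05), or -0.049 ± 0.0061 without the near-absent libraries. Within 1 Mb on the side of lower coordinates, Rps10 and Pacsin1 were thus lower and Nudt3, which starts just beyond them, higher where Ilrun was low.

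Snrpc, a protein of a spliceosomal small nuclear ribonucleoprotein, is the nearest tested gene, starting 12.15 kb from the Ilrun start on the opposite strand. Its level was 4.61 in brain-212 and 4.65 in brain-256, against a median of 4.47, 4.26 to 4.68 in the intermediate libraries and 4.22 to 4.72 in the full ones. These values ranked 27 and 11 from the highest of all libraries. The slope was -0.027 ± 0.0070 (limma adjusted p = 0.0156), and it lost its call without the near-absent libraries, where the slope was -0.029 ± 0.012 (limma adjusted p = 0.295), and without brain-256 alone, where it was -0.024 ± 0.0086 (limma adjusted p = 0.183). In these fits the slope was about as large and its SE larger. The call was also lost on Ilrun CPM (0.0604), on a rank-based normal score (0.160) and with no components (0.234). Phf1, a Polycomb-like protein that starts 858 kb away, had a slope of -0.023 ± 0.0057 (limma adjusted p = 0.0113). That call was lost without both near-absent libraries (slope -0.027 ± 0.010; limma adjusted p = 0.222), without brain-212 (-0.023 ± 0.0070; 0.0754) and without brain-256 (-0.024 ± 0.0070; 0.0567), with slopes no smaller and larger SEs. It was also lost on a rank-based normal score (0.285) and with no components (0.769).

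The other 42 neighbours did not pass; the size of their slopes lay between 1.88e-05 and 0.065, and the smallest limma adjusted p, 0.0591, was that of Slc26a8, an anion transporter known from sperm. Slc26a8 passed without the near-absent libraries, with a slope of 0.10 ± 0.026 (limma adjusted p = 0.0124). Among them, Bltp3a, a bridge-like lipid transfer protein starting 33.95 kb away, had 5.36 and 5.44 in the near-absent libraries against a median of 5.43. Anks1a, an adaptor with ankyrin repeats starting 87.3 kb away, had 5.72 and 5.72 against a median of 5.66. Taf11, a subunit of the general transcription factor TFIID, had 3.90 and 3.87 against a median of 3.90. Ppard, the nuclear receptor PPAR delta, had 5.19 and 5.19 against 5.16, and Fkbp5, a co-chaperone of the glucocorticoid receptor, had 6.04 and 6.06 against 5.78. For these 5 neighbours the levels in brain-212 and brain-256 lay within the range of the other libraries.

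**Figure D3:**
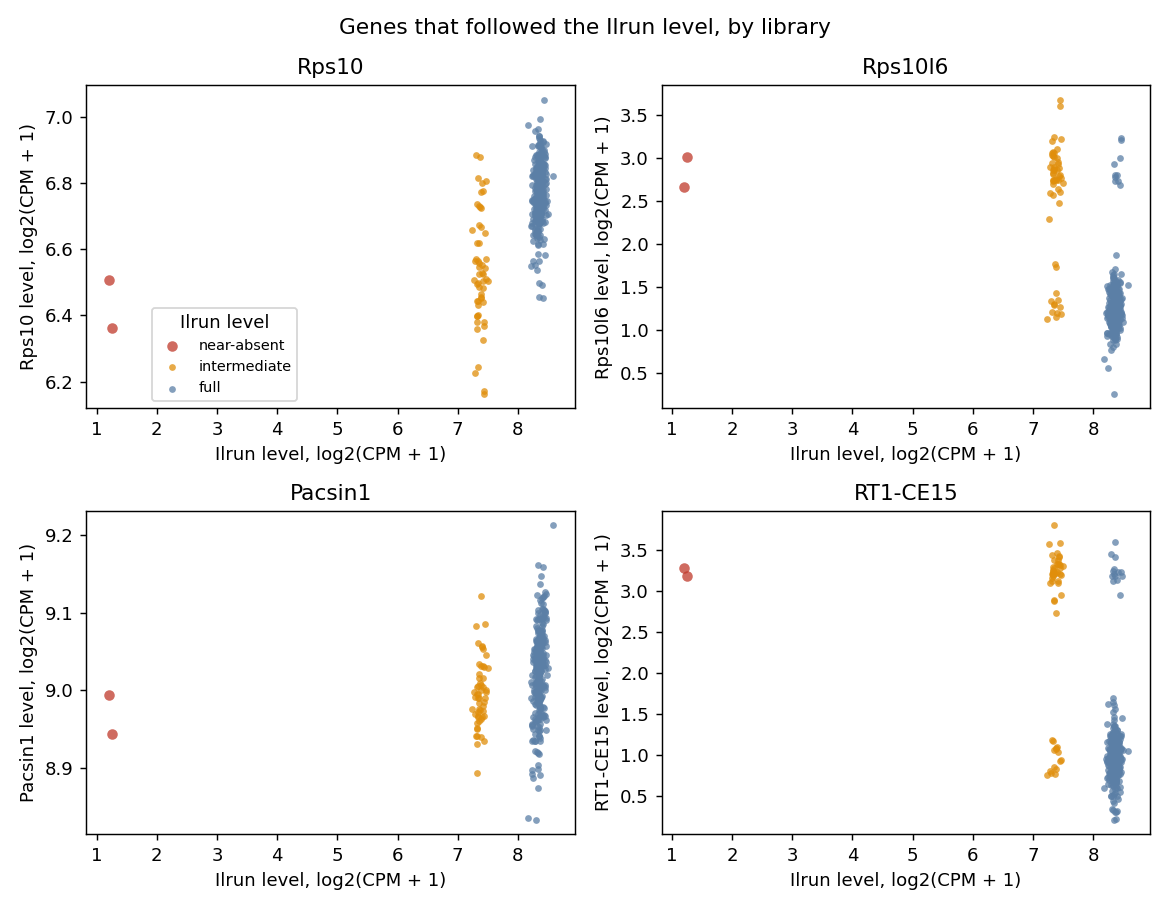
Level, log2(CPM + 1), of Rps10, Rps10l6, Pacsin1 and RT1-CE15 against the Ilrun level, 1 point a library, with the near-absent, intermediate and full sets in separate colours. Rps10 lies under its median of 6.75 in 48 of 55 intermediate libraries, and RT1-CE15 and Rps10l6 lie over theirs in 47 and 49 of 55.

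The genes with a slope extended beyond the window. On chromosome 20, 22 genes (18.2%) passed at 1 to 3 Mb from the Ilrun start, 15 of 76 (19.7%) at 3 to 6 Mb, and 2 (0.873%) farther away. On the other chromosomes 1.49% of 16208 genes passed. Without the near-absent libraries the counts on chromosome 20 were 24 (19.8%), 15 of 76 (19.7%) and 1 (0.437%), while on the other chromosomes 0.568% passed. The number of calls from 1 to 6 Mb was thus about as high without those libraries, and the number on other chromosomes was lower.

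Of 25 RT1 genes tested, 1.01 to 4.54 Mb from Ilrun, 7 passed, 2 with a positive and 5 with a negative slope. Over all chromosome 20 genes at 1 to 3 and 3 to 6 Mb, 18.2% and 19.7% passed, and over all genes 1.71%. Genes of this family present peptides to T cells, and their many near-identical copies make single levels uncertain. RT1-CE15, a class I gene 2.59 Mb away, had a level of 3.28 in brain-212 and 3.19 in brain-256, against 0.75 to 3.80 in the intermediate libraries and 0.21 to 3.60 in the full ones. Its median over all libraries was 1.01, and 47 of 55 intermediate libraries lay over it, with a slope of -0.68 ± 0.065 (limma adjusted p = 8.70e-19). RT1-CE16, 2.61 Mb away, had 5.75 and 5.52 in the near-absent libraries against a median of 3.60, and lay over that median in 49 of 55 intermediate ones. Its slope was -0.89 ± 0.14 (limma adjusted p = 1.89e-06), but on a rank-based normal score it missed the threshold (0.0697). RT1-N3, 3.21 Mb away, had 2.95 and 2.93 against a median of 2.51, with a slope of -0.15 ± 0.017 (limma adjusted p = 2.81e-13). RT1-CE11, 2.49 Mb away, had 1.85 and 1.67 against 1.34, with a slope of -0.20 ± 0.032 (limma adjusted p = 2.10e-06). Without the near-absent libraries the slopes were -1.54 for RT1-CE15, -1.99 for RT1-CE16, -0.34 for RT1-N3 and -0.50 for RT1-CE11. Across the sets, all 4 were thus higher where Ilrun was lower.

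Rps10l6 and RT1-CE15 also had an empty stretch around a level of 2. No library lay between 1.87 and 2.29 for Rps10l6 and none between 1.69 and 2.73 for RT1-CE15. Steps elsewhere in their ranges were not ranked. With a bound at a level of 2, set after the values were seen, Rps10l6 was over it in both near-absent libraries, in 42 of 55 intermediate ones (76.4%) and in 10 full ones (3.51%). RT1-CE15 was over it in both near-absent libraries, in 40 of 55 intermediate ones (72.7%) and in 14 full ones (4.91%). Both were over it together in 2 near-absent, 40 intermediate and 2 full libraries. Hence every intermediate library with high RT1-CE15 also had high Rps10l6, and 13 of the 55 intermediate libraries had neither gene high.

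The remaining genes named outside the window had smaller slopes. Ddx39b, an RNA helicase of splicing and mRNA export 2.29 Mb away, had 7.25 and 7.33 against a median of 7.23 and lay over it in 43 of 55 intermediate libraries (slope -0.057 ± 0.0074; limma adjusted p = 3.84e-10). Znrd1as1, 4.28 Mb away, had 2.17 and 2.38 against 1.92 (slope -0.11 ± 0.017; limma adjusted p = 6.55e-07). Itih3 on chromosome 16, a heavy chain of the inter-alpha-trypsin inhibitor family, had 7.83 and 7.77 in the near-absent libraries, ranked 4 and 3 from the lowest of all libraries, against a median of 8.24 (slope 0.054 ± 0.0086; limma adjusted p = 2.01e-06). Ttll7 on chromosome 2, a tubulin polyglutamylase, had 9.08 and 9.19 against 9.17 (slope 0.016 ± 0.0026; limma adjusted p = 4.11e-06). Fbxo2 on chromosome 5, which targets glycoproteins for ubiquitination, had 6.52 and 6.21 against 6.51 (slope 0.031 ± 0.0051; limma adjusted p = 4.69e-06). Itih3 and Fbxo2 missed the threshold on a rank-based normal score (limma adjusted p of 0.108 and 0.0795). With no components Ddx39b (0.113), Ttll7 (0.517), Fbxo2 (0.557), Nudt3 (0.141) and Pacsin1 (0.0556) missed it too. Without the near-absent libraries the slopes were -0.11 for Ddx39b, -0.22 for Znrd1as1, 0.062 for Itih3, 0.025 for Ttll7 and 0.034 for Fbxo2, and all 5 passed.

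Small differences of Ilrun within the full set, 0.41 wide in all, went largely with other chromosome 20 genes. Of the 96 genes called within the full set, 9 were also called over all libraries. Within the full set 11 of 48 neighbours passed (22.9%, against 0.575% of all genes). Of these, 8 had a positive slope (0.294% of all genes did) and 3 a negative one (0.282% did). At 1 to 3 Mb 42 genes (34.7%) passed, at 3 to 6 Mb 14 of 76 (18.4%), farther away on chromosome 20 none, and on other chromosomes 29 of 16208 (0.179%). Smim29, a small integral membrane protein 255.4 kb away, led with a slope of 1.28 ± 0.14 (limma adjusted p = 3.39e-14). Others within 1 Mb were Vps52, a subunit of a tethering complex for transport to the Golgi (1.87 ± 0.22; limma adjusted p = 7.03e-12), Slc26a8 (1.75 ± 0.23; 3.52e-10) and Bltp3a (0.54 ± 0.080; 1.14e-07), all higher with more Ilrun. Tapbp, tapasin, which loads peptides on class I molecules, was lower with more Ilrun (-0.89 ± 0.16). Just outside the window were Pnpla1, a lipase-family protein of skin (1.04 Mb; 5.94 ± 0.66; limma adjusted p = 2.55e-13), and RT1-A3 (1.03 Mb; 6.50 ± 0.76; limma adjusted p = 3.95e-12). These genes were singled out after their values were seen. None of the 6 neighbours called over all libraries was among the 11, and RT1-CE16 changed sign, with a slope of 13.2 within the full libraries (limma adjusted p = 5.04e-06).

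**Figure D4:**
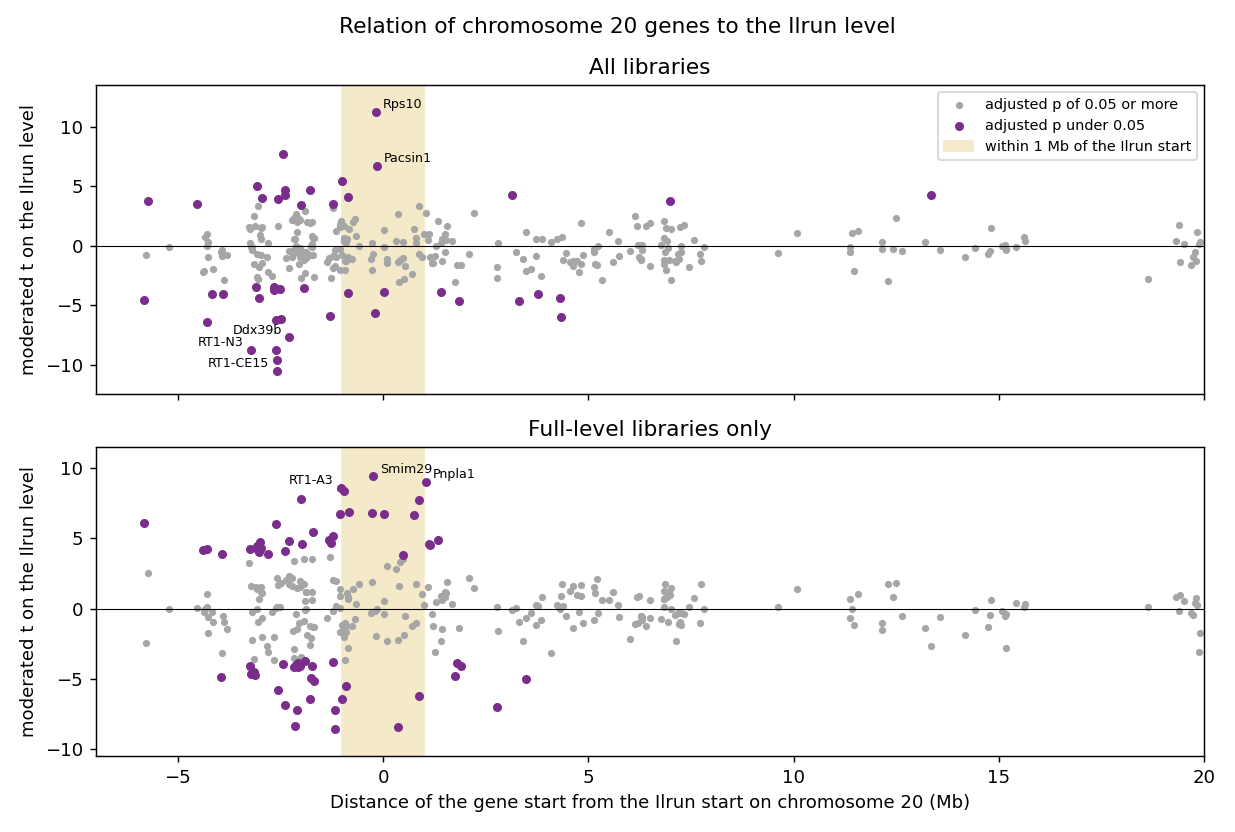
Moderated t of the slope on the Ilrun level for chromosome 20 genes, against the distance of their start from the Ilrun start in Mb, over all libraries (above) and within the full-level libraries (below); genes over 20 Mb away are not drawn. Calls lie within 6 Mb apart from 2 genes above and none below, and 6 of 48 neighbours inside the shaded 1 Mb window pass above and 11 of 48 below.

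Genes of the pathways that Ilrun is known for were read from the same fit in 6 lists, with 70 of 90 listed genes tested and 1 called, against 1.71% of all genes. None of 16 interferon-stimulated genes passed, and their median slope was -0.025. Irf7, a transcription factor that amplifies interferon production, had 3.63 in brain-212 and 3.29 in brain-256 against a median of 2.30, with 6.47 in the highest library (slope -0.089 ± 0.042; limma adjusted p = 0.330). Mx2, an interferon-induced antiviral GTPase, had 5.37 and 5.27 against a median of 4.38, with 6.36 in the highest library (-0.080 ± 0.039; limma adjusted p = 0.354). Irf9, a subunit of the interferon-activated transcription complex, had 4.35 and 4.28 against 3.99 (-0.033 ± 0.013; limma adjusted p = 0.207). All 3 were above their medians in both near-absent libraries, at levels other libraries exceeded. They were named for the largest absolute moderated t of their list, in a fit that includes those libraries. Without the near-absent libraries the slopes were -0.0010 for Irf9, 0.0075 for Irf7 and -0.022 for Mx2 (limma adjusted p of 0.99, 0.981 and 0.94).

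None of 12 NF-kB genes passed, with a median slope of -0.0021. The adhesion molecule Icam1 had 1.84 and 1.94 in the near-absent libraries against a median of 2.16 (limma adjusted p = 0.251), Nfkb2, a precursor of an NF-kB subunit, had 2.59 and 2.44 against 2.68 (0.276), and Rela, the main transactivating subunit, had 4.80 and 4.81 against 4.73 (0.319). None of 10 genes of the IRF3 pathway passed, with a median slope of 0.0021. Ikbke, a kinase of IRF3, had 2.19 and 1.77 against 2.32 (limma adjusted p = 0.189), but passed on Ilrun CPM (0.0449) and without brain-212 (0.0109). Ep300 and Crebbp, which encode the coactivators p300 and CBP, had 6.62 and 6.64 against 6.69 (0.298), and 5.36 and 5.56 against 5.64 (0.321).

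None of 13 genes of autophagy receptors and ubiquitin binding passed, with a median slope of 0.00078; Ubqln4, a ubiquilin, came nearest, with 6.56 and 6.59 against a median of 6.53 (-0.013 ± 0.0041; limma adjusted p = 0.0724). Within the full libraries Ubqln4 passed with a slope of the other sign, 0.28 (limma adjusted p = 0.0114). Of 15 genes of PPAR alpha and lipid oxidation, with a median slope of -0.0050, 1 passed. Acadl, a mitochondrial acyl-CoA dehydrogenase, had 4.76 and 4.70 against 4.52 (limma adjusted p = 0.327). None of 4 genes of the renin-angiotensin system passed, with a median slope of -0.0011; Agt, angiotensinogen, had 7.74 and 7.50 in the near-absent libraries against a median of 7.63 (limma adjusted p = 0.453).

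Of the cell type markers, 1 passed: Snap25, a neuronal SNARE protein, had 11.16 and 11.21 in the near-absent libraries against a median of 11.25 (slope 0.011 ± 0.0021; limma adjusted p = 2.57e-04). It missed the threshold without those libraries, where the slope was 0.013 ± 0.0038 (limma adjusted p = 0.0788), and so about as large. It also missed it on a rank-based normal score (0.261) and with no components (0.155). Syt1 and Rbfox3, also neuronal, did not pass (limma adjusted p of 0.858 and 0.532), nor did any of the 3 astrocyte, 3 oligodendrocyte, 3 microglia, 3 endothelial and 3 blood markers. Their part in the slopes was not tested. Hba-a1, a haemoglobin chain that marks blood, had 7.59 and 6.97 in brain-212 and brain-256, against a median of 7.82 (limma adjusted p = 0.286).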

How the data were processed

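PolyA RNA libraries of whole brain hemispheres were made with a directional kit, per the labels' protocols. The submitters' processing notes name kallisto for quantification; its version, its settings and its handling of near-identical copies were not given in the sources used here. Deposited by the authors was log2 of the estimated count plus 1, not scaled for depth. The labels name 352 samples; 342 are in the table as 1 group (2 near-absent, 55 intermediate and 285 full for Ilrun) and 10 are not analysed here. Values were turned back into estimated counts, scaled to CPM and expressed as log2(CPM + 1). The labels do not say outright that libraries are separate rats, as is assumed here; p-values measure only this between-library spread.

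Genes averaging a level of 1 or more were fitted on the Ilrun level with limma 3.58.1 in R 4.3.3, with a mean-variance trend, Benjamini-Hochberg adjustment over all 16682 genes (286 called), and 10 principal components computed without Ilrun and genes within 1 Mb. The fit was tested on simulated data. Coordinates come from RefSeq (GRCr8), in which 38278 of 38354 genes were matched by symbol; the pseudogene Ilrun-ps1 was not analysed here. Named genes are Ilrun, its tested neighbours within 1 Mb, the 10 of largest absolute moderated t elsewhere (unnamed loci left out), up to 3 of each list, and 8 by shape. Ilrun, the bounds and the lists were chosen with earlier results of these data known. Of the genes this rule names, 3 are not reported here.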

Additional observations from a re-analysis of the deposited data

How the results depend on the processing

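The number of libraries at the intermediate Ilrun level, 55, was the same with a pseudocount of 0.1, with median ratio scaling, and with the bound 0.3 or 0.7 under the median. On the values as deposited, which follow depth, the median was 12.75, the lowest library 4.73, 0 libraries lay under 3 and 76 were intermediate. The share of genes with a slope, 1.71%, was 0.372% with no components, 1.03% with 5, 0.941% on a rank-based normal score, 0.821% without the near-absent libraries, 0.977% to 1.01% without 1 of them, 0.575% within the full libraries and 0.00599% (1 gene) within the intermediate ones. The 6 neighbours became 1 with no components, 11 within the full libraries, 14 on the rank score and 0 within the intermediate libraries. The 1 list gene became 0 on the values as deposited, 2 on Ilrun CPM, 0 within the intermediate libraries and 0 to 2 without 1 near-absent library. Of the alternative values of 16 single genes, 80.2% kept direction and side of the threshold, 29 kept direction only and 24 reversed.

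All reversals came within a single set. Within the full libraries the slopes were 0.063 for Phf1, -0.18 for Rps10, -0.0026 for Pacsin1, 1.35 for Rps10l6, 1.65 for RT1-CE15, 0.39 for RT1-N3, 0.54 for Ddx39b (limma adjusted p = 0.00111), 0.025 for Znrd1as1, 13.2 for RT1-CE16 (limma adjusted p = 5.04e-06), -0.19 for Itih3, 0.84 for RT1-CE11, -0.081 for Fbxo2 and -0.053 for Snap25. Within the intermediate ones, an alternative added after the data were seen, as were Ilrun CPM, the omission of single near-absent libraries and the sum of Rps10 copies, they were 0.068 for Nudt3, -0.50 for Rps10, 1.88 for Rps10l6, 3.54 for RT1-CE15, 1.10 for RT1-N3, 0.41 for Ddx39b, 0.66 for Znrd1as1, 5.11 for RT1-CE16, 1.38 for RT1-CE11, -0.11 for Ttll7 and -0.077 for Snap25. The Ilrun level spans 0.41 and 0.27 in these sets; the cause was not tested. The near-absent level rests on 2 libraries. No paired analysis was possible because all libraries form 1 group.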
